A study of Mus musculus with 2 samples.

Results

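Smad4 peaks were examined around 7 genes of chondrocyte hypertrophy and of the mineralized matrix: Mef2c, Col10a1, Mmp13, Ibsp, Spp1, Sp7 and Alpl. Peaks were chosen by position. A peak belonged to a locus where its midpoint lay in 1 of 6 windows of mm9, all positions being 1-based. The windows were chromosome 13 from 83300001 to 84300000 for Mef2c, chromosome 10 from 33800001 to 34400000 for Col10a1, chromosome 9 from 7000001 to 7600000 for Mmp13, chromosome 5 from 104500001 to 105200000 for Ibsp and Spp1 together, chromosome 15 from 101900001 to 102450000 for Sp7 and chromosome 4 from 137000001 to 137600000 for Alpl. They span 4.05 Mb and held 138 of the 90984 peaks of the list. The rule itself uses no measured value, but the windows were proposed with earlier results of these data known.

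The peaks come from ChIP-seq, in which crosslinked chromatin is pulled down with an antibody and sequenced, here with an antibody to Smad4. The material was forelimb of C57BL/6 embryos, with the ages of embryonic days 12.5 and 13.5 given jointly. The groups were 1 Smad4 library and 1 library of input DNA made without an antibody, so no value has a replicate and no test between conditions was possible. Whole forelimb holds many cell types, and the share of its cells that were chondrocytes was not measured. Library depth is unknown, so counts of tags bound the precision of single peaks only.

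Cartilage of the growing limb is replaced by bone after its chondrocytes enlarge and mineralize their matrix. Mef2c is a transcription factor that promotes this hypertrophy, and Col10a1 encodes type X collagen, the matrix protein that marks hypertrophic chondrocytes. Mmp13 encodes a collagenase that degrades cartilage matrix. Ibsp (bone sialoprotein) and Spp1 (osteopontin) encode acidic matrix proteins of mineralizing tissue, Alpl encodes the alkaline phosphatase that supplies phosphate for mineral, and Sp7 (osterix) is a transcription factor required for bone formation. Smad4 is the partner that receptor-activated Smads share in the BMP and TGF-β pathways. Runx2, named in the study's title, is a transcription factor that drives hypertrophy and bone formation.

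The peak list carries no genes and no reference of its build was used, so the distance of a peak to a transcription start was not determined. In the gene order of RefSeq on GRCm38.p6, Mmp13 is followed by other matrix metalloproteinase genes, Mmp12, Mmp1b, Mmp3 and Mmp1a. Ibsp and Spp1 lie in a row of genes of mineralized matrix, Dspp, Dmp1, Ibsp, Mepe and Spp1. Sp7 lies between Aaas and Sp1, Alpl between Rap1gap and Ece1, Col10a1 between Nt5dc1 and Frk, and Mef2c between Cetn3 and Tmem161b. A peak in a window may therefore lie nearer to one of these genes than to the gene that names the locus.

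Because the study joins Smad4 to Runx2, the 250 bases before the annotated starts were searched for letters that such factors are known to prefer. The sequences are from RefSeq on GRCm38.p6, whose positions are not to be set beside the mm9 positions of the peaks. They held 10 starts for 6 of the 7 genes, and Sp7 was not matched. On either strand, GTCTG was found before 3 of the 10 starts and before 42.2% of 32851 starts of all genes. GGCGCC, a GC-rich letter string also bound by Smads, was found before 1 of the 10 and 9.59% of all. TGTGGT or TGCGGT, the Runx core, was found before 2 of the 10 and 18.6% of all. GTCTG and the Runx core can share their letters TG, which they did not in the sequences printed. The starts of Mmp13 and Spp1 that hold the Runx core and the Alpl start that holds GGCGCC are printed, with every match in capitals. Mmp13 lies on the plus strand at chr9:7272264-7272513, Spp1 on the plus strand at chr5:104434861-104435110 and Alpl on the minus strand at chr4:137796385-137796634.
Mmp13: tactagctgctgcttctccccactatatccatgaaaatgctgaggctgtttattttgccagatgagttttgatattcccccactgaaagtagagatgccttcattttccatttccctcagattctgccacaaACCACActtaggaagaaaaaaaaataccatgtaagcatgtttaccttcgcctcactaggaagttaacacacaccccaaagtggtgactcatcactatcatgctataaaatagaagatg
Spp1: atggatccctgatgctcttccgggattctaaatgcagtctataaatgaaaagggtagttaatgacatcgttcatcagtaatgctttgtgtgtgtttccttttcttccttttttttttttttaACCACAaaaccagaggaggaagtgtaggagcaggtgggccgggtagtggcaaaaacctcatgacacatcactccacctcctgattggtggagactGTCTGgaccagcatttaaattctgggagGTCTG
Alpl: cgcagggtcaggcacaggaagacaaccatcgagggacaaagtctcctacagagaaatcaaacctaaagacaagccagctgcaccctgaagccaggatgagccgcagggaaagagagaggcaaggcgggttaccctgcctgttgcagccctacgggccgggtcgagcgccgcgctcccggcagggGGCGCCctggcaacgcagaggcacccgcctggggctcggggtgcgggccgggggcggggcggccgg
The Spp1 sequence holds GTCTG at 2 places and the Runx core at 1, the Mmp13 sequence holds the Runx core at 1, and neither holds GGCGCC. The Col10a1 and Ibsp starts, the first and second Mef2c starts and the second Alpl start held none of the strings. A match describes letters in these windows and is not evidence of binding.

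Taken as one group, the 6 loci had about the number and the strength of peaks of the chromosomes around them. They held 34.1 peaks per Mb (exact Poisson 95% interval 28.6 to 40.3), against 35.2 per Mb in the rest of the same chromosomes, a ratio of 0.967 (0.812 to 1.14). The deposited fold enrichment is given without its background or scale, and 4.46% of peaks on these chromosomes outside the loci have a value under 1, so stronger and weaker refer to this column only. The limit for a stronger peak was set at a value of 2, which 17 of 138 peaks reached (12.3%, exact binomial 95% interval 7.34 to 19.0%). The share in the rest of the 6 chromosomes was 14.0%. The highest fold in any of the loci was 2.82, and 0 of 138 peaks reached 3, which allows a share of up to 2.17%, where 0.840% of the other peaks of these chromosomes did. An FDR of at most 1% was given to 99 of 138 peaks (71.7%, 63.5 to 79.1%), against 77.4%. The median fold was 1.39, against 1.48. The intervals cover counting error only, and they take peaks as independent although peaks lie in groups, so they may be too narrow.

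Within this average the loci differed from each other in how many peaks they held and in how strong these were. By peaks per Mb the order was Mmp13 (48.3), Col10a1 (45.0), Mef2c (39.0), Ibsp and Spp1 (31.4), Sp7 (30.9) and Alpl (6.67). The intervals of neighbours in this order overlapped except between Sp7 (18.0 to 49.5) and Alpl (1.82 to 17.1). Ranked by how many of their peaks reached 2-fold, the order was the reverse. Alpl stood at 100% (4 of 4), Sp7 at 29.4% (5 of 17) and Ibsp and Spp1 at 13.6% (3 of 22). Mef2c followed at 7.69% (3 of 39), Col10a1 at 3.70% (1 of 27) and Mmp13 at 3.45% (1 of 29). Such pairing was also seen outside the loci. On chromosome 15 a window of 6 peaks held 6 of at least 2-fold, and on chromosome 4 a window of 150 held 4. Not every window followed it, since another of 4 peaks on chromosome 4 held 1. How number and share are related over all windows was not tested. Set against the rest of each chromosome in 5 measures (all peaks, peaks of at least 2-fold and peaks under 2-fold per Mb, and the shares past the fold and FDR limits), 5 of 30 intervals left out the value of the rest, 3 of them for Alpl and 2 for Mmp13. No interval was adjusted for this number, and the 5 measures of a locus come from the same peaks.

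**Figure D1:**
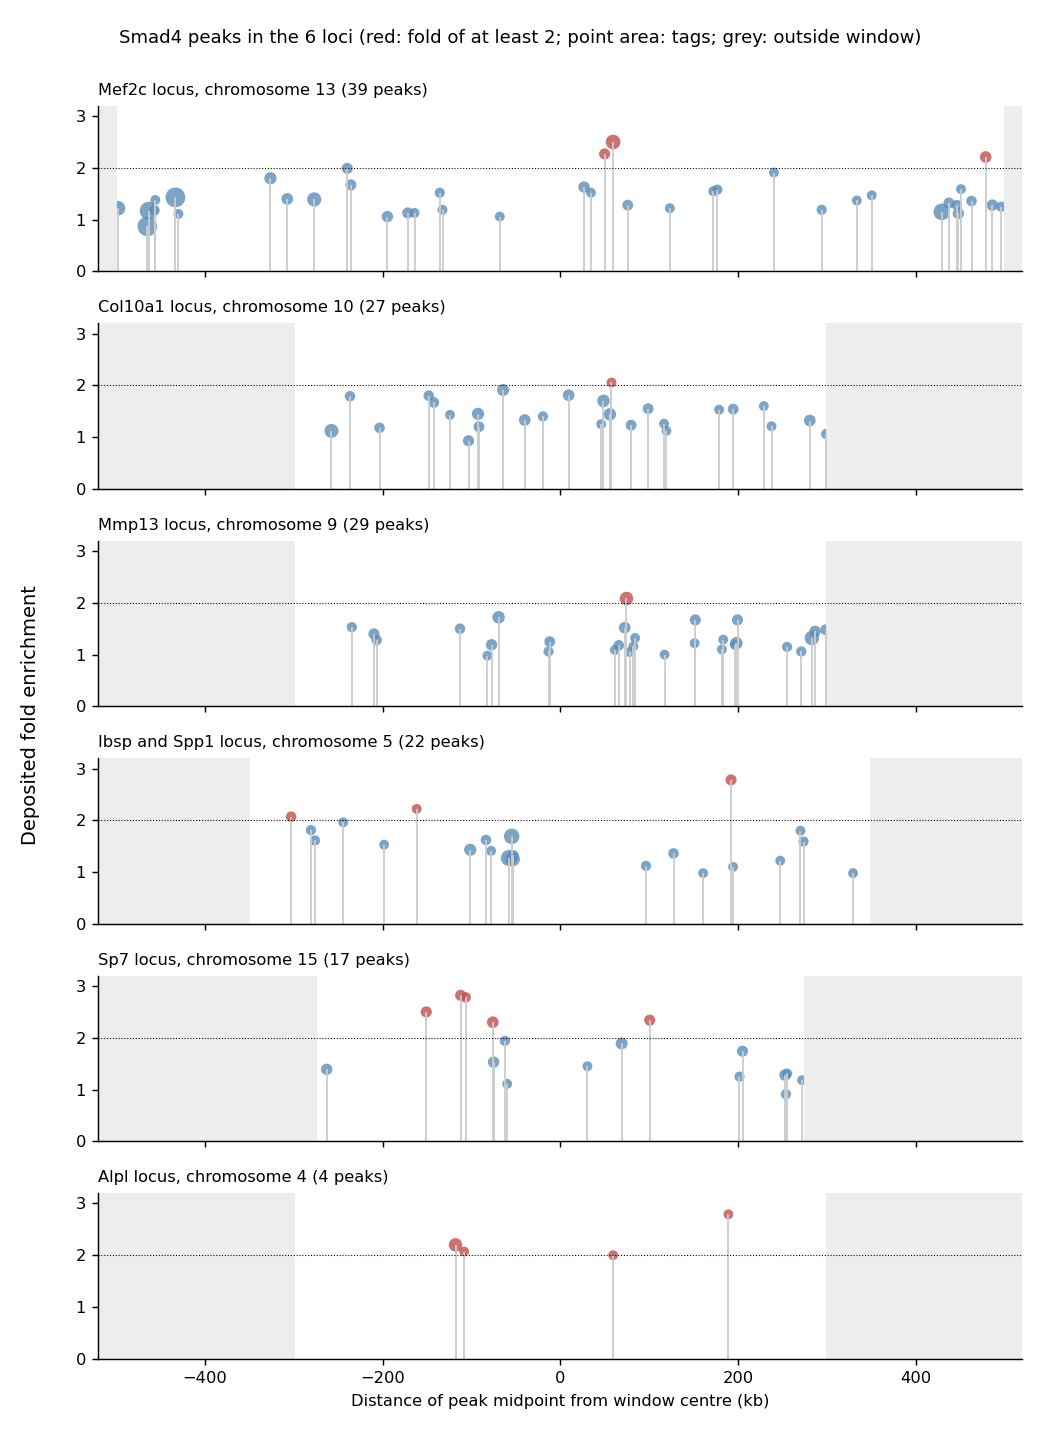
Deposited fold enrichment (y axis, ratio) of each of the 138 peaks against the distance of its midpoint from the centre of its window (x axis, kb), 1 panel per locus, with point area in proportion to tags and peaks of at least 2-fold in red. Alpl shows 4 peaks, all at or above 2, while Mmp13 and Col10a1 show 29 and 27 peaks with 1 each above 2.

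The Alpl locus, around the phosphatase gene, held few peaks and no weak ones. The 4 peaks gave 6.67 per Mb, against 36.7 per Mb in the rest of chromosome 4, a ratio of 0.182 (exact conditional 95% interval 0.0495 to 0.466). At the density of the rest, 22.0 peaks would lie in this window. All 4 peaks reached 2-fold (100%, exact binomial 95% interval 39.8 to 100%), against 14.0% of the other 5573 peaks of chromosome 4, and all 4 had an FDR of at most 1%, against 76.8%. The 4 stronger peaks compare with 3.08 at the density of the rest, a ratio of 1.30 (0.353 to 3.34). What was missing were peaks under 2-fold, of which there were 0 where the rest would give 18.9. With 3 counts as the limit that 0 allows, which is a one-sided bound, their density was at most 5 per Mb, against 31.5 per Mb in the rest.

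Peaks were also ranked by p score, −log10 of the p-value that the caller gave, multiplied by 10. The strongest Alpl peak by this score lay at 137181625 to 137182270. It contained 28 tags (exact Poisson 95% interval 18.6 to 40.5) at a fold of 2.20 and a p score of 325.17, the highest p score in any of the 6 loci, and 1.26% of the other peaks of chromosome 4 had a p score as high. The next peak, at 137191312 to 137191899, held 15 tags at a fold of 2.07 and a p score of 115.89. The peak at 137359024 to 137359611 held 15 tags at a fold of exactly 2, the limit, and a p score of 179.01. The last, at 137488776 to 137489291, had the highest fold of the locus, 2.79, from 15 tags (8.40 to 24.7), and 1.87% of other chromosome 4 peaks had a fold as high. These 4 peaks were ordinary in length, at 516 to 646 bp, and 3 of them held the lowest number of tags that the list contains.

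Long stretches around Alpl held no peak. The nearest peaks outside the window ended at 136948476 and began at 137639940, so the 4 peaks were the only ones in 691463 bp. The longest distance between neighbours in the window was 167124 bp, from 137191899 to 137359024, and 0.861% of all distances on chromosome 4 were as long. Of 252 other windows of the same 0.6 Mb width laid end to end on chromosome 4, the lowest held 4 peaks, the median window 21 and the highest 150. Only 1 of the 252 held as few as the Alpl window, and 1 of its 4 peaks reached 2-fold. In 0 of the 252 were all peaks at 2-fold or more. This count decides little, since a window with more peaks has more chances to hold a weaker one. Windows of 10 and 7 peaks came close, with 9 and 6 of at least 2-fold. Few peaks with a high share of stronger ones also marked the surrounding chromosome. The 5 windows on each side of Alpl held 7 to 18 peaks (median 11.5), and 56 of their 114 peaks reached 2-fold (49.1%), against 13.2% in the 242 windows farther away. The 13.2% is pooled, and some of these farther windows were like those near Alpl. On one side a window of 9 peaks held 7 of at least 2-fold, and on the other a window of 13 held 9. Others were not, such as a window of 51 peaks with 0 of at least 2-fold. The pattern was therefore limited neither to the Alpl window nor to the windows nearest to it. The size of the deficit depends on the window. In the inner 50% of the window the ratio was 0.273 and in a window of double width it was 0.386 (0.225 to 0.618). Without peaks of 15 tags it was 0.0670, from 1 peak. With a fold limit of 2.5 the share fell to 25% (1 of 4, 0.631 to 80.6%), against 4.02% in the rest, which the interval includes. The interval of the share also included the rest at a limit of 1.5 (39.8 to 100%, against 47.0%) and without peaks of 15 tags (1 of 1, 2.5 to 100%, against 16.2%).

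**Figure D2:**
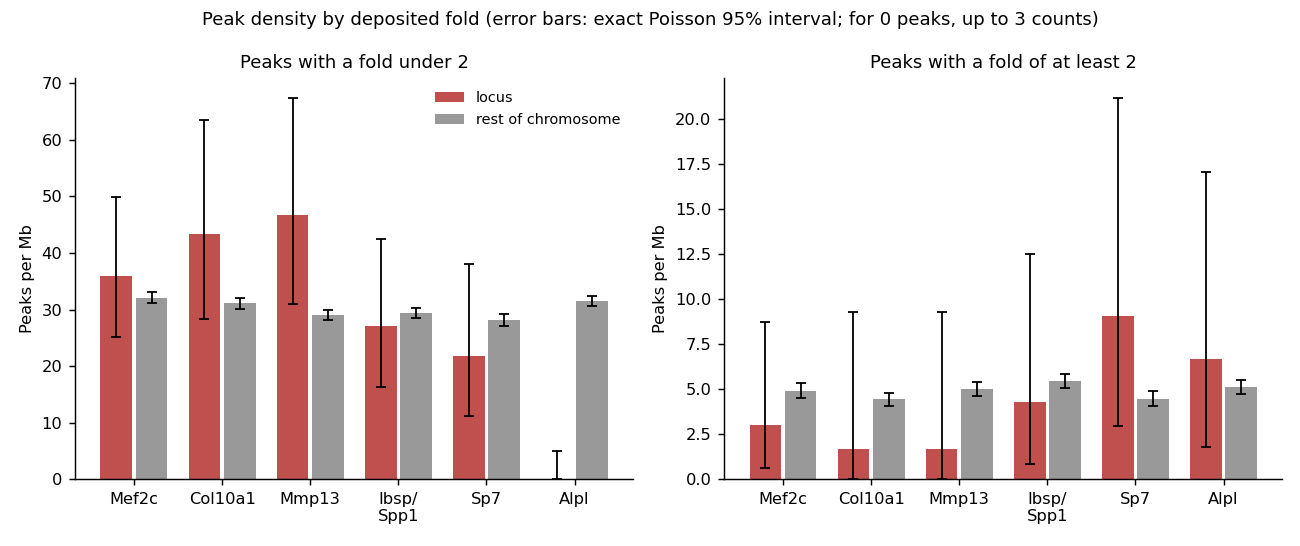
Peaks per Mb (y axis) of peaks with a fold under 2 (left) and of at least 2 (right) in each locus (red) and in the rest of its chromosome (grey), with exact Poisson 95% intervals, drawn up to 3 counts where a locus has 0 peaks. Alpl has 0 weak peaks per Mb against 31.5 in the rest, and 6.67 strong peaks per Mb against 5.13.

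The Mmp13 locus, around the collagenase gene, held many peaks and mostly weak ones. Its 29 peaks gave 48.3 per Mb, against 34.0 per Mb in the rest of chromosome 9, a ratio of 1.42 whose interval (0.950 to 2.04) includes 1. Peaks under 2-fold stood at 46.7 per Mb against 29.0, a ratio of 1.61 (1.07 to 2.33). Only 1 peak reached 2-fold (3.45%, 0.0873 to 17.8%), against 14.7% in the rest, a share that the interval includes. At a limit of 1.5 the share was 24.1% (7 of 29, 10.3 to 43.5%), an interval that leaves out the 51.1% of the rest. The median fold was 1.25 against 1.5, and the median p score was 82.97 against 109.7. An FDR of at most 1% was given to 15 of 29 peaks (51.7%, 32.5 to 70.6%), against 79.2% of the other peaks of the chromosome. Peaks past this FDR limit stood at 25 per Mb against 27.0, and those with a higher FDR at 23.3 per Mb (12.8 to 39.1) against 7.08. With peaks of at most 1% FDR alone the ratio of densities was 0.927 (0.518 to 1.53), so the direction of the excess rests on the peaks of higher FDR.

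The peak with the highest fold and p score of the Mmp13 locus lay at 7373553 to 7374509. It had 28 tags (18.6 to 40.5), a fold of 2.10 and a p score of 154.08. It was also the longest of the locus, at 957 bp. On chromosome 9, 11.2% of other peaks had a fold as high, so it was not among the leading peaks of its chromosome. The next by p score, at 7451490 to 7452077, held 19 tags at a fold of 1.67. The peak with the most tags, 32 (21.9 to 45.2), lay at 7582521 to 7583468 at a fold of 1.32. The second highest fold, 1.72, belonged to the peak at 7229968 to 7230753, with 24 tags. Peaks lay close together here. The median distance between neighbours was 6560 bp, against 17843 bp over chromosome 9. Of 28 neighbouring pairs, 5 were less than 1 kb apart (17.9%), against 7.49% over the chromosome. This share carries no interval and was not particular to Mmp13. At Sp7 it was 18.75% (3 of 16), against 7.06% over chromosome 15. It was 5.26% at Mef2c, 7.69% at Col10a1, 9.52% at Ibsp and Spp1 and 0% at Alpl. Of 200 other windows of the Mmp13 width on chromosome 9, 21 held at least as many peaks as Mmp13, so the number itself was not extreme. The surrounding windows were alike. The 5 on each side held 20 to 44 peaks (median 27, against 19 in the 190 windows farther away), and 18 of their 274 peaks reached 2-fold (6.57%), against 15.3% farther away.

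The Col10a1 locus resembled that of Mmp13 in having many peaks and few of at least 2-fold, but none of its intervals left out the value of the rest. Its 27 peaks gave 45.0 per Mb against 35.6 in the rest of chromosome 10, a ratio of 1.27 (0.833 to 1.84), and 32 of 210 other windows held at least as many. The single peak of at least 2-fold (3.70%, 0.0937 to 19.0%, against 12.5%) lay at 34156524 to 34157051 and held 15 tags at a fold of 2.07. The FDR was at most 1% for 20 of 27 (74.1%), against 76.4%. The median fold was 1.43 against 1.47. By p score the leading peaks were at 34035043 to 34035765 (171.01), 34148103 to 34148764 (164.55) and 34108884 to 34109533 (161.99). They held 22, 24 and 21 tags at folds of 1.91, 1.70 and 1.81. Counting intervals of these tag numbers overlap widely, from 13.8 to 33.3 for the first and from 13.0 to 32.1 for the last. The longest peak, at 33841766 to 33842770, was 1005 bp and held the most tags, 30, at a fold of only 1.12. No 100 kb of this window was without a peak, the numbers running from 3 to 7. The surrounding windows leaned the same way as the locus. The 5 on each side held 16 to 32 peaks (median 24.5, against 21 in the 200 windows farther away). Of their 243 peaks, 22 reached 2-fold (9.05%), against 12.7% farther away.

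**Figure D3:**
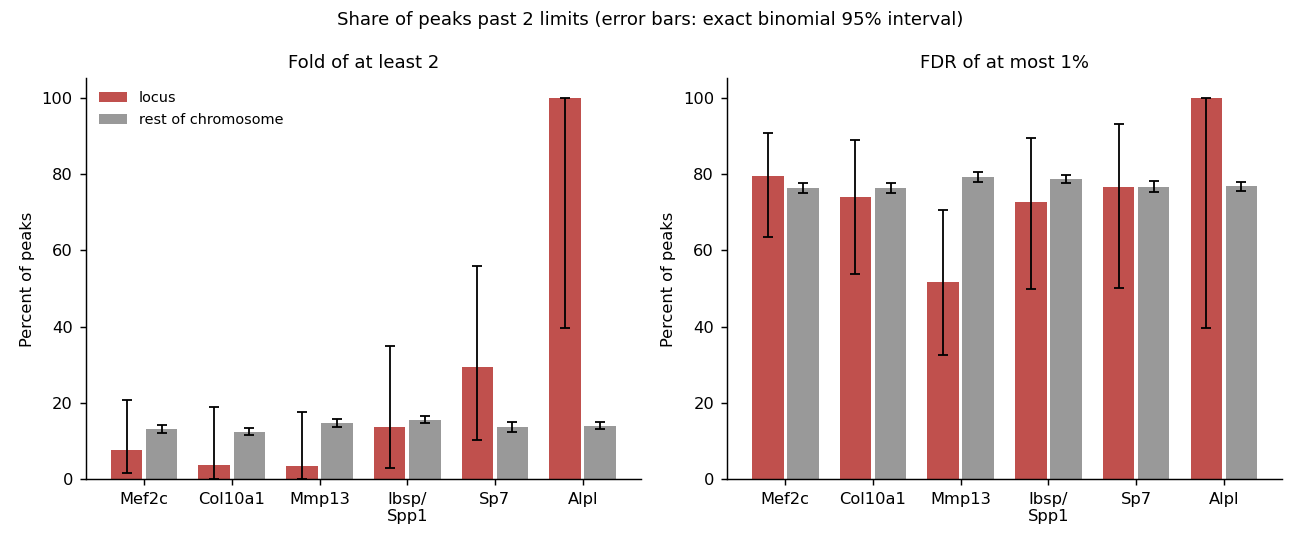
Percent of peaks (y axis) with a fold of at least 2 (left) and an FDR of at most 1% (right) in each locus (red) and in the rest of its chromosome (grey), with exact binomial 95% intervals. The interval of Alpl lies above the rest on the left, and that of Mmp13 lies below the rest on the right, at 51.7% against 79.2%.

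The Sp7 locus, around the osterix gene, had an ordinary number of peaks and the highest share of stronger ones after Alpl. Its 17 peaks gave 30.9 per Mb against 32.6 in the rest of chromosome 15, a ratio of 0.949 (0.552 to 1.52). At least 2-fold was seen in 5 of 17 peaks (29.4%, 10.3 to 56.0%), against 13.7%, which the interval includes. Per Mb these were 9.09 against 4.46, a ratio of 2.04 (0.658 to 4.79), and 23 of 180 other windows of this width held at least 5. At a limit of 2.5 the share was 17.6% (3 of 17, 3.80 to 43.4%), against 3.59%. In the inner 50% of the window it was 44.4% (4 of 9, 13.70 to 78.8%), against 13.69%, and both intervals leave out the rest. At a limit of 1.5 it was 52.9% (9 of 17, 27.8 to 77.0%), against 49.4%. In a window of double width it was 16.1% (5 of 31, 5.45 to 33.7%), against 13.8%. Both of these intervals include the rest, and the flanks added by doubling held no peak of at least 2-fold. The 6 nearest windows, 5 on one side and 1 on the other before the chromosome's last peak, also had a high share, 31 of 93 peaks (33.3%). In the 174 windows farther away it was 13.2%. Of the 31, 11 lay in 1 window of 16 peaks, the farthest of the 6 from Sp7. The 13.2% is pooled over windows that differed. Among them, windows of 6, 8 and 10 peaks held 6, 6 and 7 of at least 2-fold, and a window of 26 held 0. A high share was therefore not limited to the windows near Sp7. The FDR was at most 1% in 13 of 17 (76.5%), against 76.7%. The median p score was 126.46, against 106.965.

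Stronger peaks of the Sp7 locus lay near each other on one side of the window. At 102062404 to 102062987 a peak of 19 tags (11.4 to 29.7) had a fold of 2.82, the highest in any of the 6 loci, and a p score of 213.8. At 102068067 to 102068516, 5079 bp farther on, a peak of 17 tags had a fold of 2.78 and a p score of 220.26. On chromosome 15, 1.60% and 1.72% of other peaks had a fold as high. The highest p score, 244, belonged to the peak at 102098562 to 102099146, where 21 tags gave a fold of 2.30. The longest peak, at 102023579 to 102024421, had 19 tags over 843 bp at a fold of 2.5. These 4 of the 5 stronger peaks fell within the 75.6 kb from 102023579 to 102099146, and the remaining one lay at 102275162 to 102275821 and had 19 tags at a fold of 2.34. The most tags in the locus were 22, at 102243514 to 102244262, where the fold was 1.89.

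The Mef2c locus, the widest of the windows at 1 Mb, had 39 peaks, a density 1.05 times that of the rest of chromosome 13 (0.748 to 1.44; 39.0 against 37.0 per Mb). Of 39 peaks, 3 reached 2-fold (7.69%, 1.62 to 20.9%), against 13.3%, and an FDR of at most 1% by 31 (79.5%), against 76.3%. Both shares of the rest lie within the intervals. The peak with the highest p score and fold lay at 83858867 to 83859714, with 33 tags (22.7 to 46.3), a fold of 2.5 and a p score of 314.33. On chromosome 13, 2.16% of other peaks had a fold as high and 1.18% a p score as high. The peak before it, 8847 bp away at 83849493 to 83850019, had the second highest fold, 2.27, from 19 tags.

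Peaks rich in tags but low in fold lay near both ends of the Mef2c window. The longest peak in all 6 loci, 1878 bp at 83365704 to 83367581, held 60 tags (45.8 to 77.2), the most in any of them, at a fold of 1.43. Nearer the edge, a peak at 83334315 to 83335847 held 59 tags at a fold of 0.87, the lowest fold of the 138 peaks, and the next, at 83335971 to 83337226, held 50 tags at a fold of 1.17 and a p score of 224.08. At the other end, the peak at 84228694 to 84229739 held 42 tags at a fold of 1.15. The peak at 83473310 to 83473878 had a higher p score, 232.37, from 23 tags at a fold of 1.80. The first 100 kb of the window held 7 peaks and the last 100 kb held 9, while the fifth 100 kb held 1.

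The window that holds both Ibsp and Spp1 had intervals that included the rest of its chromosome in each of the 5 measures compared. Its 22 peaks gave 31.4 per Mb against 34.8 in the rest of chromosome 5, a ratio of 0.902 (0.565 to 1.37). Of 22 peaks, 3 reached 2-fold (13.6%, 2.91 to 34.9%), against 15.6%, and an FDR of at most 1% by 16 (72.7%, 49.8 to 89.3%), against 78.7%. The median fold was 1.48 against 1.5. The peak with the highest fold and p score lay at 105041738 to 105042295, with 19 tags (11.4 to 29.7), a fold of 2.78 and a p score of 220.71, and 1.76% of other chromosome 5 peaks had a fold as high. The second highest fold, 2.22, lay at 104687970 to 104688528 with 15 tags. By p score the next peaks were at 104791507 to 104792556 (172.58), which held the most tags of the locus, 40 (28.6 to 54.5), at a fold of 1.27, and at 104748165 to 104748828 (156.17), with 23 tags at a fold of 1.43.

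Tags in this window gathered at one place. From 104791507 to 104797339 lay 4 peaks within 5833 bp, with 40, 37, 32 and 18 tags and folds of 1.27, 1.69, 1.25 and 1.32. The longest peak of the locus, 1058 bp at 104795719 to 104796776, was one of them, and only 14 bp lay between it and the next. This group was followed by the longest stretch without a peak in the locus, 148721 bp up to 104946061, a distance that 1.17% of those on chromosome 5 equalled or passed. Whether the group or the empty stretch falls on Ibsp, Spp1 or a neighbouring gene was not determined. Close groups were not particular to this window. Groups of 3 peaks, each less than 3 kb from the next, lay at Mef2c (5248 bp), Mmp13 (3755 bp) and Sp7 (3024 bp). They held 52, 58 and 52 tags, against 127 in the group of 4 here. How common such groups are over chromosome 5 was not tested.

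**Figure D4:**
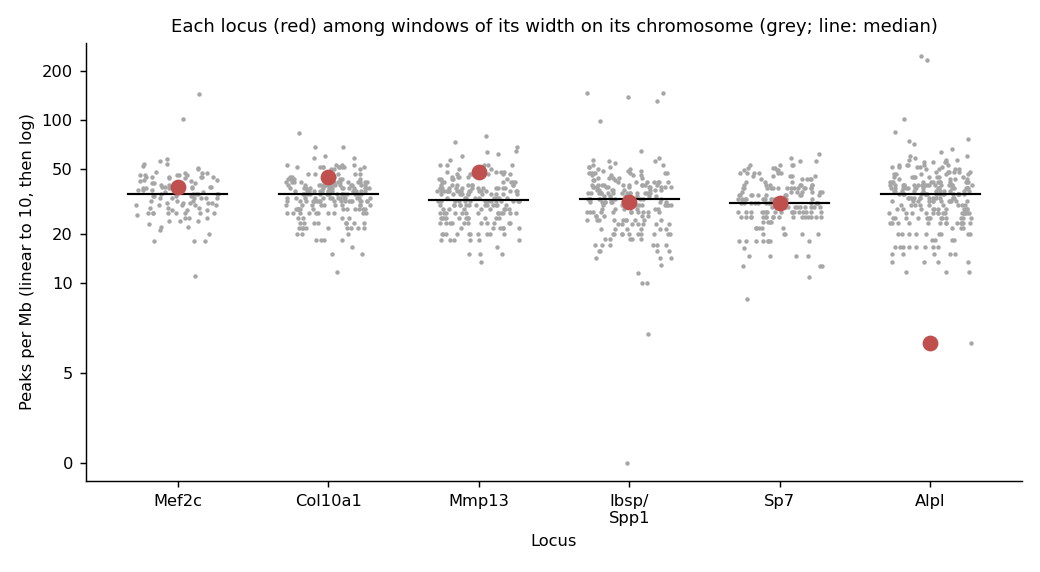
Peaks per Mb (y axis, linear to 10 and logarithmic above) in each locus (red) and in all other windows of the same width laid end to end on its chromosome (grey points, line at their median). Alpl lies at the low end of its chromosome, level with 1 other window, while the other 5 loci lie within the range of theirs.

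Peaks were of like size in all 6 loci. Median tags ran from 15 (Alpl) to 19 (Sp7), against 16 or 17 in the rest of each chromosome, and median length from 576.5 to 593 bp, against 582 to 588 bp. In each of 3 classes of tag number, the peaks of the loci had the lower median fold. At 15 tags it was 1.26 (45 peaks) against 1.40 in the rest of the 6 chromosomes, at 16 to 20 tags 1.425 (62 peaks) against 1.5, and at 21 or more tags 1.43 (31 peaks) against 1.63. The class of 21 or more tags has no upper limit, and its peaks reached 60 tags in the loci and 2383 in the rest. Peaks of this class are therefore not of like tag number. The medians carry no interval. The share of at least 2-fold did not follow the order of the medians. It was 11.1% against 7.90% in the rest at 15 tags, 11.3% against 14.1% at 16 to 20 tags and 16.1% against 24.5% at 21 or more. The 11.1% rests on 5 of 45 peaks, of which 3 lay at Alpl, 1 at Col10a1 and 1 at Ibsp and Spp1. The higher share at 15 tags is therefore mostly that of Alpl.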

How the data were processed

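One deposited list of peaks was used, from Smad4 ChIP of mouse forelimb. BWA, SICER and MACS and the build mm9 appear in the submitters' processing notes; versions and settings are not given in the sources used here. Per the file headers, the authors deposited for each peak a whole-number count of tags, a p score (10 times −log10 p), a fold enrichment (a ratio whose background is not stated) and an FDR in percent, at most 4.99%. The scale of the fold is not given either. The list's title mentions genes and 10 kb around start sites, but no column names a gene or a start site, and whether peaks were filtered on this is unknown. Library totals were not used here, so depth is unknown.

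Peaks were assigned to windows by midpoint. Each locus was compared with the span of its chromosome from first to last peak, less the window. Densities have exact Poisson, density ratios exact conditional binomial, and shares exact binomial (Clopper-Pearson) 95% intervals. A count of 0 was given a limit of 3 counts. Peaks of 1 library are not replicates, so no p-value was computed. The rule for named peaks takes, per locus, the 3 highest p scores, the 2 highest folds, the most tags, the longest peak and any fold of at least 3. The remaining Alpl peak, the last Sp7 peak of at least 2-fold and the neighbours of named peaks at Mef2c and Ibsp were added after their values were seen. So was the Mef2c peak of 42 tags at 84228694 to 84229739, which adjoins no named peak. Members, windows and limits were chosen with earlier results of these data known. Windows of equal width, the 5 nearest of them on each side, distances, classes of tags and letter strings were chosen after the files were seen. The work was done in Python 3.11.15 with scipy 1.17.1, numpy 2.4.6 and pandas 2.3.3, and the figures with matplotlib 3.10.9. The intervals were tested on simulated independent counts only. Peaks that lie in groups were not simulated, so how the intervals perform for them was not tested.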

Additional observations from a re-analysis of the deposited data

How the results depend on the processing

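The density ratios and the shares of peaks of at least 2-fold were recomputed with an FDR of at most 1%, without peaks of 15 tags, with any overlap, with narrower and wider windows, without 1 Mb windows of at least 100 peaks, against all autosomes, with peaks under 1 kb apart merged and with other fold limits. Of 108 values, 99 stayed within the interval of the reported value and 0 of those whose interval left out the rest changed direction. Only the Alpl density ratio and the Alpl share had such an interval at the reported setting. Some of the 99 are unchanged values. Counting any overlap gave the same values as midpoints at every locus. Leaving out the dense 1 Mb windows changed nothing at Col10a1, Mmp13 and Sp7. Staying within the interval is also a weak requirement where counts are small. The interval of the share ran from 39.8 to 100% for Alpl and from 10.3 to 56.0% for Sp7. Among the 99 is the Alpl share without peaks of 15 tags, which rests on 1 peak. Shares at limits of 1.5 and 2.5 are a different quantity from the share at 2 whose interval they were set against. The Mmp13 density ratio went from 1.42 to 0.927 with an FDR of at most 1%, where fewer of its peaks remain. With a fold limit of 1.5, the shares were 33.3% for Mef2c (46.7% in the rest), 40.7% for Col10a1 (48.3%), 24.1% for Mmp13 (51.1%) and 50.0% for Ibsp and Spp1 (50.5%). With 2.5 they were 0% for Col10a1 (2.89%), 0% for Mmp13 (3.78%) and 25% for Alpl (4.02%). In 6 of the 108 values the interval moved past the rest or came to include it, 1 for Mmp13 (limit 1.5), 2 for Sp7 (limit 2.5, inner window) and 3 for Alpl (limits 1.5 and 2.5, without peaks of 15 tags). Without peaks of 15 tags the Col10a1 share was 0%, since its only peak of at least 2-fold holds 15. No paired analysis was possible because there was 1 Smad4 library and 1 input library. Depth is unknown, and 15 tags have a counting interval of 8.40 to 24.7.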

Other observations

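The flanks of the Alpl window also held a high share of stronger peaks. In the window of double width, 17 peaks lay where the original window held 4, and 10 of the 17 reached 2-fold (58.8%, exact binomial 95% interval 32.9 to 81.6%), against 13.9% in the rest of chromosome 4. In the doubled Sp7 window 5 of 31 peaks did (16.1%), against 13.8% in the rest of chromosome 15.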
